A study of Caenorhabditis elegans with 2 samples.

Results

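The ceh genes (for C. elegans homeobox) encode transcription factors that bind DNA through a homeodomain. They were taken as the protein-coding genes of the Ensembl release 115 models of assembly WBcel235 whose symbol starts with ceh-, which gave 63 of 19973 nuclear coding genes. Binding of the forkhead factor FKH-8 at these genes was read from ChIP-seq peak lists of whole C. elegans larvae. The study had 1 group in 2 biological replicates, with no other condition: mixed-sex animals of strain OP652, genotype unc-119(tm4063) III; wgIs652, in larval stage L1, taken 6 hours after synchronization as starved, bleached L1 larvae. The transgene adds a C-terminal GFP-FLAG tag to FKH-8, and the genotype lists the unc-119 allele tm4063. The labels' description names an antibody against GFP, while their antibody field names fkh-8. A control sample named in the labels was not itself analysed here. Per the deposited descriptions, control alignments went into the peak list of each replicate. Whole animals were sampled, so a peak carries no cell type, and binding in fewer cells cannot be told apart from weaker binding in each cell.

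Homeodomain factors fix the fates of cells along the body axis and in the nervous system, and in C. elegans nearly every neuron class is marked by its own combination of them. Their classes differ in sequence around the homeodomain: CUT factors carry additional cut domains, LIM factors LIM domains, POU factors a POU-specific domain and sine oculis-type factors a protein interaction domain. FKH-8 is known for its role in ciliated sensory neurons, where the RFX factor DAF-19 acts on cilium genes through a site called the X-box.

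Binding at a promoter was scored by summits: the promoter window of a gene covers the 1000 bp before its annotated 5′ end and the 200 bp after it, and a gene with a reproducible summit there counts as bound. Reproducible peaks are the 4963 that passed the authors' threshold on the irreproducible discovery rate, and they are exactly the 4963 peaks of highest signal among 17956 peaks called on the pooled replicates. The other 12993 pooled peaks are called lower peaks here. Each replicate's own list held 19354 peaks in replicate 1 and 21452 in replicate 2. The signal is the authors' value with no stated scale, so it serves only to rank peaks within a list, and the files give no read depth. The fkh-8 gene itself (chromosome II) had no summit within 2 kb in any of the 4 lists.

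Reproducible summits lay in the promoter windows of 4 of 63 ceh genes (6.35%, 95% exact binomial interval 1.76 to 15.5%), against 13.8% of all coding genes. The 4 were ceh-38, ceh-39, ceh-23 and ceh-57. The interval of the ceh share holds the 13.8% of all coding genes. Both shares moved with the length of the list. With the 9926 pooled peaks of highest signal, 13 ceh genes (20.6%) had a promoter summit, against 21.3% of all coding genes. With the 2481 reproducible peaks of highest signal the shares were 6.35% of ceh genes and 8.08% of all. The 4963 best peaks of replicate 1 bound 5 ceh genes (13.5% of all coding genes) and those of replicate 2 bound 4 (13.8%), and the 4 genes were among them both times. Each replicate's best peaks gave 1 ceh gene with an intronic summit (4.08% of all coding genes in replicate 1, 3.93% in replicate 2). Exonic summits were found at 2 ceh genes with replicate 1 (1.79% of all) and 3 with replicate 2 (1.78%). Both gave 12 ceh genes with a distal summit (17.4% of all) and 12 as the nearest gene (17.9%). Distal summits, more than 1000 and up to 5000 bp upstream, were found at 13 ceh genes (20.6%, interval 11.5 to 32.7%), against 17.5% of all coding genes. Where summits beyond another coding gene were left out, 9 ceh genes (14.3%) had a distal summit, against 6.64% of all coding genes. The nearest 5′ end of at least 1 reproducible summit belonged to 13 ceh genes (20.6%), against 18.1% of all coding genes. Only ceh-36 had an intronic summit (1.59%, against 4.04%), and ceh-38 and ceh-57 had exonic ones (3.17%, against 1.70%). In all, 18 ceh genes (28.6%) had a reproducible peak in at least 1 of the promoter window, an intron, the distal window or the nearest position, against 31.7% of all coding genes. These intervals cover the counting of genes only, and genes are not replicates.

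**Figure D1:**
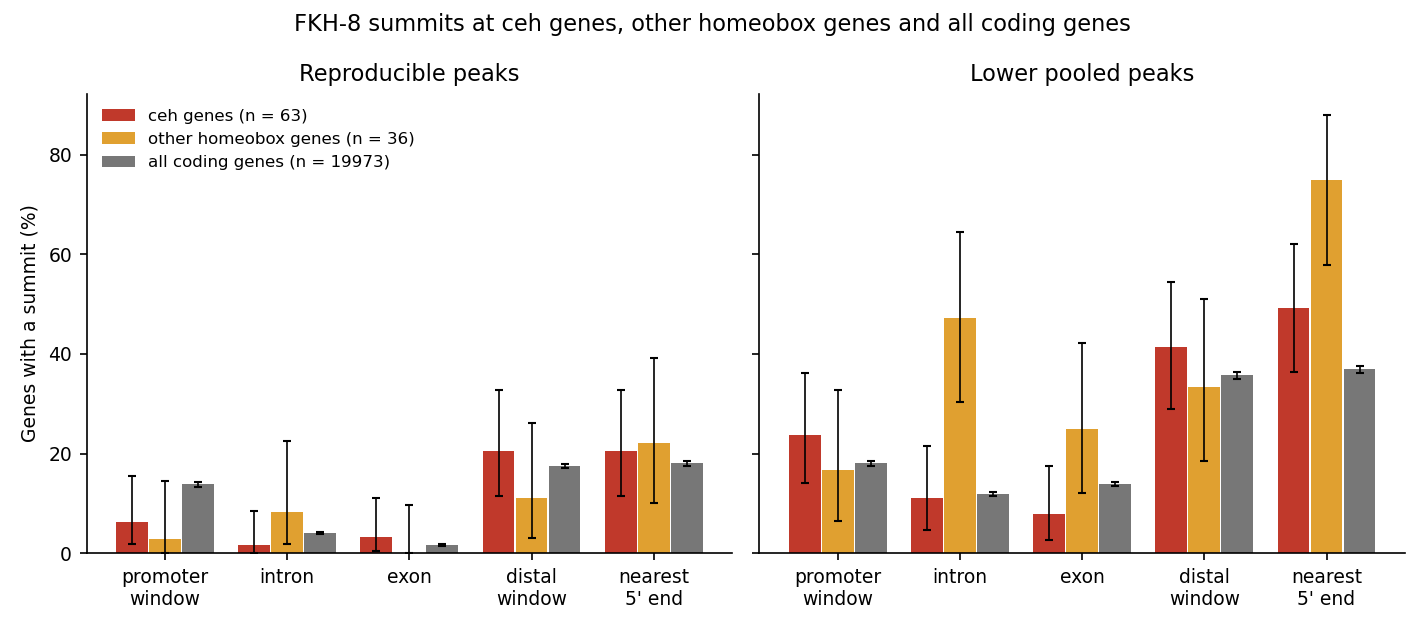
Percentage of genes with a FKH-8 summit in each place, for ceh genes, other homeobox genes and all coding genes, from reproducible peaks (left) and lower pooled peaks (right); bars are shares and lines are exact 95% binomial intervals. For promoter windows the ceh bar stands at 6.35% beside 13.8% for all genes with reproducible peaks, and at 23.8% beside 18.1% with lower peaks.

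By kilobase the ceh counts were small. In the first 1000 bp upstream, ceh genes had 3 reproducible summits, or 4.76 per 100 genes, against 13.6 for all coding genes. In the first 1000 bp downstream they also had 3, or 4.76 per 100, against 2.39. From 1000 to 2000 bp upstream they had 5, or 7.94 per 100, against 6.02. From 2000 to 3000 bp they had 5, or 7.94, against 5.21, and from 3000 to 4000 bp 3, or 4.76, against 5.21. From 4000 to 5000 bp they had 5, or 7.94 per 100, against 4.98. Between the upstream kilobases the ceh counts differ by 2 summits at most, too few to give the profile a shape. Lower summits at ceh genes numbered 12 in the first 1000 bp downstream (19.0 per 100 genes), 13 in the first 1000 bp upstream (20.6) and 11 in the next (17.5). All coding genes had 10.6 lower summits per 100 genes in the first of these bins, 16.9 in the one upstream of the 5′ end and 12 in the next. The ceh genes had a median of 1805 bp of upstream sequence before the next coding gene, against 937 bp for all coding genes, and a median summed intron length of 1317 bp, against 722 bp. Per length, reproducible summits came to 52.9 per Mb of ceh promoter windows, against 103 per Mb for all genes. In distal windows they came to 72.7 per Mb at ceh genes, against 52.6 per Mb, and in introns to 7.46 per Mb (1 summit), against 36.3 per Mb. The part of gene architecture in these differences was not tested.

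**Figure D2:**
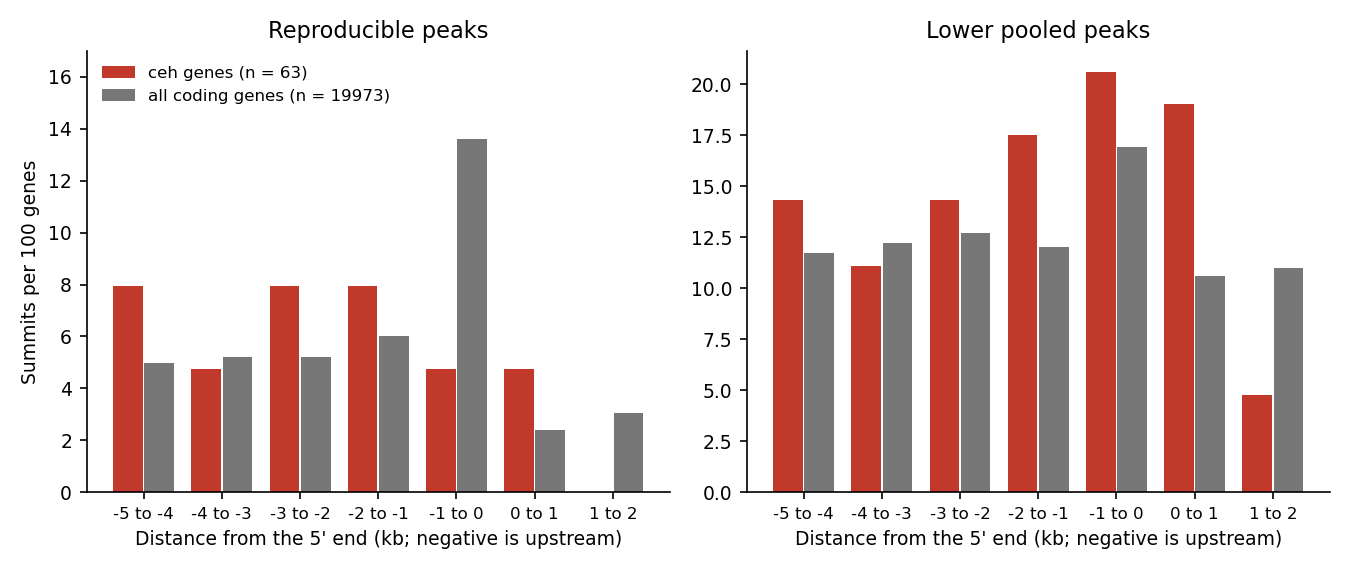
Summits per 100 genes in steps of 1 kb around the annotated 5′ end, for ceh genes and all coding genes, with reproducible peaks (left) and lower pooled peaks (right). With reproducible peaks the ceh bar in the first kilobase upstream is 4.76 and the bar for all genes 13.6, while from 1 to 3 kb upstream both ceh bars stand at 7.94.

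The 18 genes were tied by position to 26 distinct reproducible peaks, and most of these ranked low. Their signals ran from 95.7 to 774 with a median of 137, against a median of 164 for all 4963 peaks. Their median rank was 3156, against 2482, and 9 of the 26 were among the 2481 peaks of highest signal. The 4 promoter peaks were all among those 2481, with signals from 169 to 663, as were 1227 of all 2207 promoter peaks. The 18 distal peaks had a median signal of 130, against 167 for all distal peaks. Of the 18, 6 were among the 2481, as were 1496 of all 2907 distal peaks. Of the 26 summits, 18 (69.2%) were intergenic, that is outside coding genes, against 68.4% of all reproducible summits. A ceh gene had the nearest 5′ end for 18 of them. The promoter window of a coding gene outside the ceh family held 6 of the 26, the ceh-38 promoter peak among them, and the files do not tell which gene such a peak serves. Counting only promoter summits in no other coding gene's window, 3 ceh genes remained (4.76%), without ceh-38, against 7.65% of all coding genes.

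**Figure D3:**
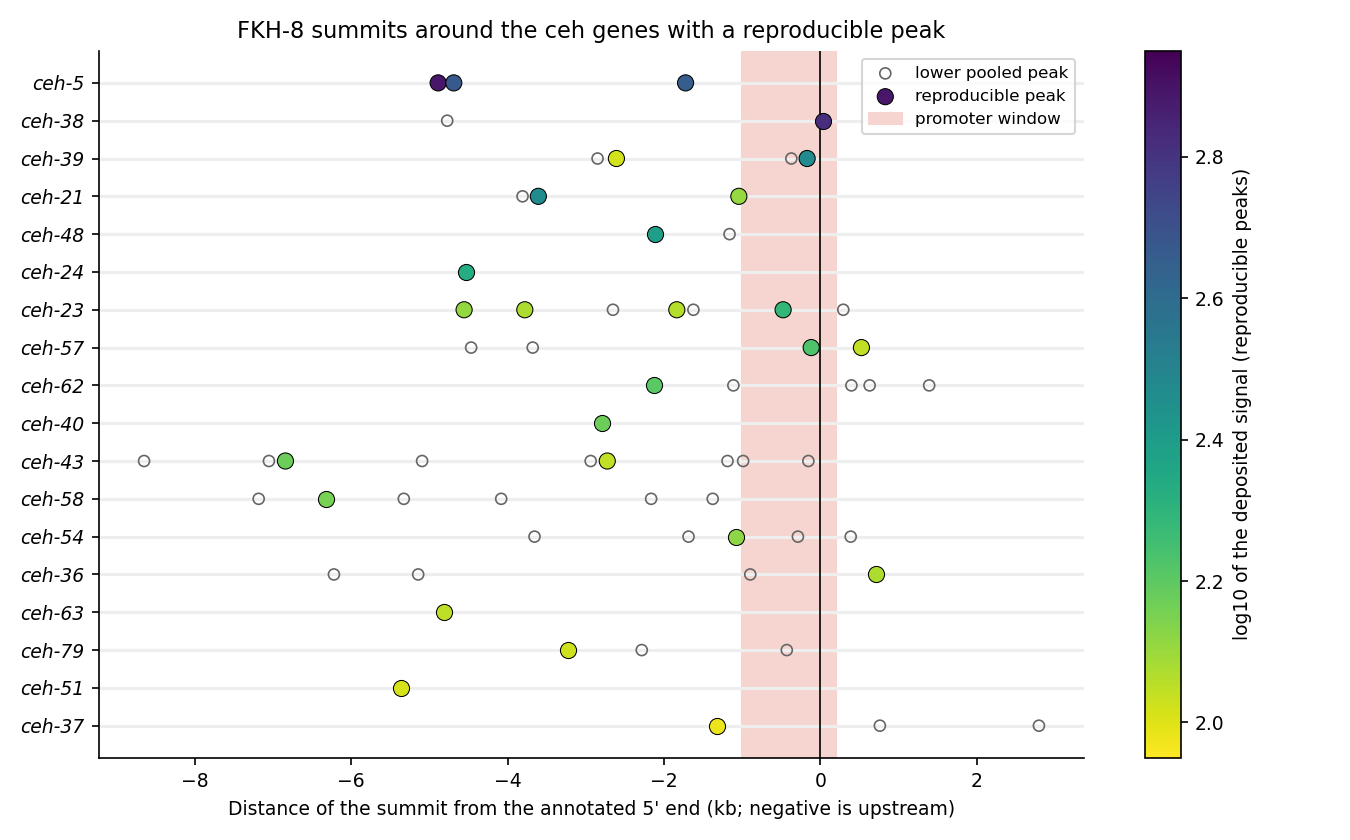
Distance of each FKH-8 summit from the annotated 5′ end for the 18 ceh genes with a reproducible peak, ordered by their highest signal; filled points are reproducible peaks coloured by log10 signal, open points are lower pooled peaks, and the shaded band is the promoter window. The centres of 4 filled points lie in the band, at ceh-38, ceh-39, ceh-23 and ceh-57.

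The CUT genes held the highest promoter peaks of the family. CUT factors of this worm are known for broad expression in neurons and for a part in switching on genes that all neurons share, and ceh-39 is also known as an X-linked signal in sex determination. Of the 6 CUT genes among the members, 2 were bound at the promoter and 4 had a reproducible peak in any of the places, which over all coding genes were 13.8% and 31.7%. At ceh-38 (WBGene00000459, chromosome II, 6951526 to 6955409, plus strand) the summit lay 38 bp downstream of the 5′ end, in an untranslated part of an exon. The same summit lies in the window of malt-1, which encodes a paracaspase. That peak had a signal of 663, rank 137 of 4963, with a signal of 340 (rank 117) in replicate 1 and 332 (rank 151) in replicate 2. It was thus among the highest of all peaks in both replicates. At ceh-39 (WBGene00000460, chromosome X, 1853874 to 1856172, minus strand) an intergenic summit lay 170 bp upstream, with a signal of 296 and rank 1018. The peak overlaps the ncRNA gene T26C11.10. Replicate 1 gave that peak a signal of 143 and replicate 2 145. A second ceh-39 peak, 2608 bp upstream, had a signal of 104 (rank 4506), overlapped a tRNA gene and was nearest to the 5′ end of T26C11.8.

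Both CUT promoter summits are shown with 100 bp on each side, as the strongest ceh promoter sites, on ce11 and the plus strand from the RefSeq genome. Capitals mark matches on either strand to any of 6 motifs: the X-box, the forkhead core TAAACA, a looser forkhead set (the same core after A or G, where its T may be C and its C may be T), GACGC as the alternative core of FOXN-type forkhead factors, GAGAGA, and the homeodomain core TAATTA. The forkhead core after A or G counts in both forkhead sets.
ceh-38 (chrII:6951464-6951664): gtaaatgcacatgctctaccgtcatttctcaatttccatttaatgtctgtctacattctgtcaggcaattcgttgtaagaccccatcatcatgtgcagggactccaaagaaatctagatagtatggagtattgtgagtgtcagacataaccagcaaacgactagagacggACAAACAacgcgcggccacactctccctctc
ceh-39 (chrX:1856242-1856442): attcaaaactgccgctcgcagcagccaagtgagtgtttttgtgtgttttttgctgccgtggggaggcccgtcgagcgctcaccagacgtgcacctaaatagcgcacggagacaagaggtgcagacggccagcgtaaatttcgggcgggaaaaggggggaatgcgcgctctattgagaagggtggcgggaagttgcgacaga
The ceh-38 window holds 1 match, ACAAACA of the looser forkhead set at 70 bp from the summit, and the ceh-39 window holds none. Their GC contents were 44.8% and 57.2%, against a mean of 41.4% over all reproducible summits. No match says only that these letters are not in this window.

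The other CUT genes had peaks farther away or none. At ceh-48 (chromosome IV, plus strand) an intergenic summit lay 2121 bp upstream, and ceh-48 had its nearest 5′ end. That peak had a signal of 248 (rank 1364), with 121 in replicate 1 and 122 in replicate 2. The genes ceh-41, ceh-21 and ceh-39 lie in a row on the same strand of the X chromosome, with T26C11.9 before ceh-39, and the ceh-39 promoter summit also lies 3606 bp upstream of ceh-21, with 2 coding genes between. A further ceh-21 summit, 1043 bp upstream with a signal of 128 (rank 3447), lay in an exon of T26C11.9, 70 bp from that gene's own 5′ end. Neither ceh-41 nor ceh-49 had a pooled peak in any of the places. The RefSeq table holds 1 additional coding gene, ceh-44, also known as a CUT gene, which the Ensembl models do not list under that symbol. It is not among the 63, and it has the same start as cone-1 (chromosome III, 2530620, plus strand). A reproducible peak of signal 567 (rank 222) lay 1803 bp upstream of it and peaks of 314 (rank 908) and 226 (rank 1593) lay 2337 and 4808 bp downstream of its 5′ end, in introns of cone-1, so the ceh-44 and cone-1 genes cannot be told apart here.

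The ceh-48 window is shown because a match lies on the summit itself, with GACGC at the summit and its reverse complement 36 bp away.
ceh-48 (chrIV:6809887-6810087): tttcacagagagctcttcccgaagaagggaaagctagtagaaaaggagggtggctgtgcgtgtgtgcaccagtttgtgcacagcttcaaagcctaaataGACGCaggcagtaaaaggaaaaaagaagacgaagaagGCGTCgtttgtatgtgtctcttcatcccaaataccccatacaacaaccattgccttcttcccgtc

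Of 17 NK and other ANTP-class genes, 1 was bound at the promoter and 5 had any reproducible peak, against 13.8% and 31.7% of all coding genes. The bound gene was ceh-23 (WBGene00000446, chromosome III, 7839592 to 7841491, plus strand), which is known for expression in the AIY interneurons and in sensory neurons. Its intergenic summit lay 477 bp upstream, with a signal of 194 and rank 1953. That peak had a signal of 110 (rank 1594) in replicate 1 and 81.9 (rank 2585) in replicate 2. Distal peaks at ceh-23 lay 1836, 3779 and 4555 bp upstream, with signals of 115, 118 and 129. All 4 ceh-23 summits were intergenic with no coding gene between, in an upstream region of 7097 bp. It was the only ceh gene with more than 3 reproducible peaks in these places. Each of the 3 distal ceh-23 windows holds GACGC within 100 bp of the summit, while the promoter window, of 30.8% GC, holds none of the motifs.
ceh-23 promoter (chrIII:7839015-7839215): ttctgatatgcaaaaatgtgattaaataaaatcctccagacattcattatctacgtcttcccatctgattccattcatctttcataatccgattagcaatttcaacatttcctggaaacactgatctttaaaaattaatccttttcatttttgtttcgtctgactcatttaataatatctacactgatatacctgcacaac
ceh-23 distal, 1836 bp upstream (chrIII:7837656-7837856): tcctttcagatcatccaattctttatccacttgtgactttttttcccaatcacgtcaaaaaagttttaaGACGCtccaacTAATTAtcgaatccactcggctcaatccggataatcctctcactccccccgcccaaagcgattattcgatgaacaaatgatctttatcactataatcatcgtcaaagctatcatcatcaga
ceh-23 distal, 3779 bp upstream (chrIII:7835713-7835913): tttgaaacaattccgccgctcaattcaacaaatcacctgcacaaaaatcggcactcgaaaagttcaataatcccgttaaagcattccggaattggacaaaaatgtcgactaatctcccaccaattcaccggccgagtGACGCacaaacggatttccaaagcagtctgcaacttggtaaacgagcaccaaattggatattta
The distal window at 1836 bp also holds TAATTA, 15 bp from its summit. The 3 distal peaks ranked 3424 to 3984 of 4963.

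The remaining ANTP-class peaks all lay more than 1000 bp upstream. At ceh-43, the Distalless gene of the worm, which is known for a part in dopaminergic neurons, summits lay 2725 bp upstream (signal 111, rank 4146) and 6839 bp upstream (signal 149, rank 2831), in an upstream region of 12889 bp. Both summits were intergenic and nearest to ceh-43. At ceh-24, an NK-type gene known from motor neurons and muscle, an intergenic summit 4532 bp upstream had a signal of 216 (rank 1685) but lay nearer to the 5′ end of swan-1. At ceh-51, known for mesoderm specification, the summit 5367 bp upstream had a signal of 103 (rank 4514) and lay in an intron of emb-4. The highest peaks near any ceh gene were upstream of ceh-5, with signals of 774 (rank 84), 473 (rank 369) and 451 (rank 425). The first 2 lay 4887 and 4687 bp upstream of ceh-5, in an intron of ocrl-1 and in the promoter window of eat-16, a regulator of G protein signalling. They overlap each other and the same peak of each replicate. The third lay in an exon of eat-16, 1724 bp from the 5′ end of ceh-5. It was nearest to the 5′ end of ceh-5. At all 3, 2 coding genes lay between the summit and the 5′ end of ceh-5.

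PRD-like genes, 8 in number, had no promoter peak, and 3 had a reproducible peak elsewhere. Over all coding genes 13.8% had a promoter peak and 31.7% had one in any of the places. The only intronic ceh peak was at ceh-36 (chromosome X), an Otx-type gene known to set the identity of the AWC and ASE sensory neurons. The summit lay 706 bp downstream of the 5′ end, with a signal of 118 (rank 3852), 54.6 in replicate 1 and 60.7 in replicate 2. At the related ceh-37, known from the AWB sensory neuron, an intergenic summit lay 1320 bp upstream with a signal of 95.7 (rank 4910), next to the lowest reproducible signal of 94.9. That was the only peak at a ceh gene outside the 4963 best peaks of both replicates, at rank 5268 in replicate 1 and 5177 in replicate 2. At ceh-54 the summit lay 1084 bp upstream, just outside the promoter window, with a signal of 132 (rank 3336). Replicate 1's own summit for that peak lay 92 bp away, and its best peaks bound ceh-54 in the promoter window, which is the fifth gene counted for replicate 1. The ceh-36 window is shown as the single intronic site of the family, and it holds none of the motifs.
ceh-36 (chrX:14185760-14185960): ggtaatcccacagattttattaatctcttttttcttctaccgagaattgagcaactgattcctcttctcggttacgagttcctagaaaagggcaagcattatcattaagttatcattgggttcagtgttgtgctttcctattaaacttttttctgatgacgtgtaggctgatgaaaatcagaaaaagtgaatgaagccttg

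Among the other classes, the TALE gene ceh-40, a Pbx-type cofactor, had a summit 2792 bp upstream (signal 150, rank 2812) that lay in the window of the chemoreceptor gene srd-40. The 3 genes of the sine oculis class, both POU genes, the LIM gene ceh-14 and the Hox gene ceh-13 had no reproducible peak in any of the places. Over all coding genes 31.7% had one. Of the 22 members not assigned to a class here, 1 was bound at the promoter and 5 had any reproducible peak, against 13.8% and 31.7% of all coding genes. The bound gene was ceh-57 (WBGene00007416, chromosome II, 10363584 to 10367296, minus strand). Its intergenic summit lay 118 bp upstream, with a signal of 169 and rank 2369. Replicate 1 gave that peak a signal of 105 (rank 1719) and replicate 2 64.4 (rank 3560), so it stood higher in replicate 1. A second ceh-57 summit, 524 bp downstream of the 5′ end in an exon outside the coding sequence, had a signal of 110 (rank 4206).

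The ceh-57 promoter window is shown because it holds the only X-box within 100 bp of a ceh summit.
ceh-57 (chrII:10367314-10367514): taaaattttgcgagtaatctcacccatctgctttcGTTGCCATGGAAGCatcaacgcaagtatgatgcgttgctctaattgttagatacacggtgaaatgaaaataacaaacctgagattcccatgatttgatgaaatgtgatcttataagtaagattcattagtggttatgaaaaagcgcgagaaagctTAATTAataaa
The X-box match, GTTGCCATGGAAGC at chrII:10367349-10367362, begins 53 bp and ends 66 bp upstream of the ceh-57 5′ end, 52 bp from the summit. TAATTA lies 90 bp from the same summit. The next gene upstream is ceh-58, whose only reproducible summit as nearest gene lay 6318 bp upstream (signal 143, rank 2977). At ceh-62 an intergenic summit lay 2123 bp upstream (signal 161, rank 2545) and was nearest to ceh-62. At ceh-63 the summit 4810 bp upstream (signal 112) lay in the window of tag-52, and at ceh-79 the summit 3231 bp upstream (signal 106) was nearest to C26E1.1.

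Over all 26 ceh summits, the X-box was found within 100 bp of 1 (3.85%), against 3.49% of all 4963 reproducible summits. GACGC was found at 9 (34.6%), against 30.7%, and GAGAGA at 8 (30.8%), against 34.6%. TAATTA was found at 3 (11.5%), against 8.18%. The forkhead core TAAACA was at none of the 26, against 13.4% of all summits, and the looser forkhead set at 5 (19.2%), against 31.3%. The mean GC content within 100 bp was 42.7% at ceh summits, against 41.4%. All 4 ceh promoter summits lacked GACGC and GAGAGA, which stood at 33.8% and 32.7% of all promoter summits. These shares are descriptions over few peaks and the letters found are not shown to be sites.

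The reproducible peaks were selected by the authors for agreement between replicates. All 26 ceh peaks were present in both whole replicate lists, as were 4960 of all 4963 reproducible peaks. In 25 of 26 (96.2%) both replicates ranked the peak among their 4963 best, against 83.6% of all reproducible peaks. Summits of both replicates lay within 100 bp of the pooled summit for 25 of 26, against 92.6% of all. Ranks still differed at single peaks, as at ceh-57 and at ceh-40, which stood at rank 2158 in replicate 1 and 4192 in replicate 2.

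**Figure D4:**
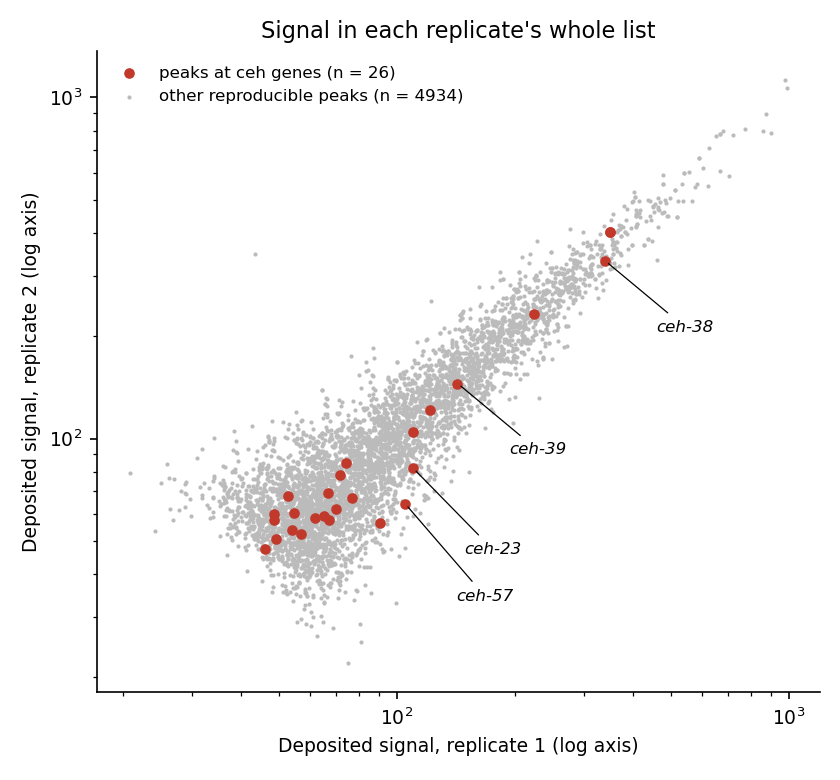
Deposited signal of each reproducible peak in replicate 1 and replicate 2, both on log axes, for the 26 peaks at ceh genes and the 4934 others present in both lists, with the 4 promoter peaks named. The ceh-38 peak lies at 340 in replicate 1 and 332 in replicate 2, and most ceh peaks lie below 100 in both; 2 ceh-5 peaks share 1 point.

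Below the reproducible set, 24 ceh genes (38.1%) had lower pooled peaks alone in the promoter window, gene, distal window or as nearest 5′ end, against 34.5% of all coding genes. A further 21 (33.3%) had no pooled peak there, against 33.7%. Lower summits lay in the distal windows of 26 ceh genes (41.3%), against 35.7% of all coding genes, and 31 ceh genes (49.2%) were the nearest to one, against 36.9%. Introns of 7 ceh genes (11.1%) held one, against 11.8%, and exons of 5 (7.94%), against 13.8%. In promoter windows, 14 ceh genes (22.2%, interval 12.7 to 34.5%) had a lower peak and no reproducible one, against 16.0% of all coding genes. The 15 such peaks were present in both replicate lists in 11 cases, and none of these 11 was among the best peaks of either replicate. Of all 12993 lower peaks, in any place, 7784 were present in both lists. Of the 12993, 587 (4.52%) were among the best peaks of both replicates and 913 (7.03%) among those of a single replicate. Lower peaks rank below the reproducible ones in the pooled list by definition, so few could be among the best peaks. Some lower summits lie about 200 bp from a reproducible one and overlap the same replicate peak, as at ceh-39, 372 bp upstream.

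The highest lower-only peak was 3613 bp upstream of ceh-1, an NK-type gene, at a signal of 90.0 (rank 5277 of 17956) in an intron of nhr-45. Among the 24 ceh genes with lower peaks alone, the highest promoter summit lay 95 bp upstream of ceh-88 (78.5). Next came summits 246 bp upstream of ceh-89 (74.7) and, in an intron of cest-2.3, 172 bp upstream of ceh-74 (70.9). Lower promoter summits of higher signal lay at ceh-43 (80.7) and ceh-54 (80.2), which also had reproducible distal peaks. Genes with known neuronal roles also had lower peaks: ceh-14, the LIM gene of the AFD thermosensory neuron, had 74.7 at 3777 bp upstream, in an exon of the collagen gene dpy-7. The sine oculis-type gene ceh-32 had 71.2 at 2986 bp upstream. At ceh-8, a PRD-like gene, the highest lower peak (68.3) was in replicate 2's list alone, at a signal of 55.0. Its summit lay in an exon 5277 bp downstream of the ceh-8 5′ end, and in the promoter window of col-63. At the POU gene ceh-18 an intronic lower peak had 61.4. A distal one at ceh-53 had 57.1 and lay in the promoter window of srz-79, with 2 coding genes between it and ceh-53. At ceh-60, a TALE gene, a distal one had 54.3 and was in replicate 1's list alone. The −log10 of the authors' q-value was 2.16 at the ceh-1 peak, 1.39 at that of ceh-14 and 0.505 at that of ceh-60. The pooled list holds background regions besides peaks, so these lower peaks are weak evidence of binding.

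The 21 ceh genes with no pooled peak included ceh-13 (Hox), ceh-16 (the engrailed gene), ceh-6 (POU), ceh-10 (PRD-like, known for the AIY interneuron), ceh-41 and ceh-49 (CUT), and the ANTP-class genes ceh-7, ceh-27, ceh-28, ceh-30 and ceh-31. The others were ceh-75, ceh-76, ceh-81, ceh-82, ceh-83, ceh-84, ceh-87, ceh-92, ceh-93 and ceh-99. By chromosome, promoter peaks were at 2 of 13 ceh genes on II, 1 of 8 on III and 1 of 18 on X, and at none of the 8 on I, 4 on IV and 12 on V. Over all coding genes the promoter shares were 12.4% on II, 20.0% on III, 13.7% on X, 17.5% on I, 13.1% on IV and 9.85% on V.

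Homeobox genes with other symbols were counted in the same way from a list of 36, including Hox, LIM and paired-type genes that set neuron identity. A promoter peak was found at 1 of the 36 (2.78%, interval 0.0703 to 14.5%), against 13.8% of all coding genes. It was ttx-3, the LIM gene known for AIY identity, with a summit 238 bp upstream and a signal of 121 (rank 3722). Intronic reproducible summits were at lin-11 (signal 162), mls-2 (136) and vab-3 (95.0), 3 of 36 or 8.33%, against 4.04%. Any reproducible peak was found at 9 of 36 (25.0%), against 31.7%. The median upstream region was 1805 bp for ceh genes, against 9613 bp for these genes. The difference between ceh genes and the other homeobox genes was not tested.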

How the data were processed

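Chromatin of 2 biological replicates of whole L1 larvae was profiled by ChIP-seq. The authors deposited narrowPeak lists on ce10 and ce11; the 4 lists on ce11 were used, and the 4 on ce10 were not, since no coordinates were converted. Column 7 of the deposited lists is a signal value with no stated scaling, and column 9 is the −log10 of a q-value, at its upper limit in 82.5% of the reproducible peaks, so peaks were ranked by signal. Per the deposited descriptions, alignments of a replicate and of a control gave its list, and alignments of both replicates the pooled one; these lists hold background regions besides peaks. The aligner, peak caller and threshold are not given in the sources used here, and read depth is unknown.

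Summits (column 2 plus column 10) were tied to Ensembl release 115 gene models, whose 5′ ends are often trans-splice sites. An intronic summit lay in the gene and in no exon of it. The nearest gene was the one with the nearest 5′ end. Replicate values came from the highest overlapping peak (1 base or more) of each list, and the best peaks were the 4963 of highest signal. With 1 group, no test was made: counts of members stand beside those of all coding genes, with exact (Clopper-Pearson) 95% intervals. The assignment was tested on 200 summits placed at known spots, and 200 were recovered (Python 3.11.15, SciPy 1.17.1). Members, lists and homeobox classes were chosen with earlier results of these data known. Every ceh gene with a reproducible peak was named, as were the 10 with the highest signal among those with lower peaks only, all those with no pooled peak, and other homeobox genes bound at the promoter. The other homeobox genes with intronic peaks, ceh-44 and the looser forkhead set were added after their values were seen.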

Additional observations from a re-analysis of the deposited data

How the results depend on the processing

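The best peaks of single replicates gave 4 to 5 bound ceh promoters, 1 intronic, 12 distal and 12 nearest genes, 17 to 18 genes with any peak, and 1 to 2 other homeobox genes at the promoter. List length moved the counts most. With the 2481 reproducible peaks of highest signal, the promoter count stayed at 4 (8.08% of all coding genes), while intronic genes numbered 0 (2.24%), distal 4 (9.87%), nearest 6 (10.2%), any 8 (19.1%) and other homeobox promoters 0 (8.08%), each beside its share of all coding genes. With 9926 pooled peaks there were 13 bound ceh promoters (21.3% of all coding genes), 3 intronic (7.37%), 21 distal (28.3%), 23 nearest (29.1%) and 29 genes with any peak (46.7%), and 3 other homeobox promoters (21.3%). The added promoters were those of ceh-8, ceh-32, ceh-36, ceh-43, ceh-54, ceh-74, ceh-79, ceh-88 and ceh-89. A window from 2000 bp upstream to 500 bp downstream bound 8 (18.8% of all coding genes), and whole peaks gave 2 intronic genes (6.15%). Within 50 and 200 bp of the summit the X-box was at 0 and 2 of 26 ceh summits, against 2.04% and 5.32% of all reproducible summits. TAATTA was at 1 and 5 (3.51% and 17.8% of all), the looser forkhead set at 1 and 12 (16.4% and 55.1%) and TAAACA at 0 and 2 (6.79% and 26.1%). The cause of these changes was not tested beyond the longer or shorter lists and windows themselves. The other alternatives kept the counts of ceh genes within 1.5 times, but 3 of them moved the shares of all coding genes by more. Without summits beyond another coding gene, distal ceh genes numbered 9 (14.3%), against 6.64% of all. With summits in no other gene's window, added after seeing the data, bound ceh promoters numbered 3 (4.76%), against 7.65% of all. With lower peaks present in both replicate lists, ceh promoters with lower peaks alone numbered 10 (15.9%), against 9.69% of all. No paired analysis was possible because the design has 1 group. With unknown read depth, a missing peak does not show absence of binding.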

Other observations

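Lower pooled peaks inside introns were found at 7 of 63 ceh genes (11.1%), against 17 of 36 homeobox genes with other symbols (47.2%, exact 95% interval 30.4 to 64.5%) and 11.8% of all coding genes. The median summed intron length was 1317 bp for ceh genes, 3470 bp for the other homeobox genes and 722 bp for all coding genes. Per length, introns held 74.6 lower summits per Mb in ceh genes, 180 per Mb in the other homeobox genes and 117 per Mb in all coding genes. Reproducible summits came to 7.46 per Mb in introns of ceh genes, 18.0 per Mb in those of the other homeobox genes and 36.3 per Mb in all coding genes. The pooled list holds background regions besides peaks, and the part of intron length was not tested.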
